A study of Mus musculus with 12 samples.

Results

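Heat shock chaperones were followed in RNA of bone marrow cells sorted as hematopoietic stem cells (HSCs). The 10 genes described are Hspa1a, Hspa1b, Hspa8, Hsp90aa1, Hsp90ab1, Hsph1 and Dnajb1 of the cytosol and Hspd1, Hspe1 and Hspa9 of the mitochondria. They were taken by name and make up 10 of the 31340 gene rows, and all 10 passed the filter on low values. All 12 libraries came from wild-type mice, which according to the methods of the study were C57BL/6 animals, and no transgene was used. The 4 groups of 3 libraries are untreated controls (Ctrl), mice given whole-body gamma irradiation at a sublethal dose (IR), and irradiated mice of the groups labelled Ab_IR and L_IR, whose added letters the labels do not spell out. Irradiated cells were collected at day 3, and the gate given in the methods was Lineage-, Sca-1+, c-Kit+, Flt3- and CD34-. The age of the mice is not given in the labels, and no source says whether the libraries of a group came from separate mice, so p-values measure the spread between these libraries, which may be technical.

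Heat shock proteins hold unfolded proteins and help them fold. In the cytosol, J-domain proteins such as DNAJB1 hand substrates to HSP70, whose ATP cycle is turned by exchange factors such as HSPH1 of the HSP110 family, and substrates such as kinases and steroid receptors pass on to HSP90. In mitochondria, HSPA9 (mortalin) pulls proteins in and the HSPD1 ring with its HSPE1 lid folds them. Under proteotoxic stress the transcription factor HSF1 binds heat shock elements, which are arrays of the letters GAA and their complement TTC, and raises stress-inducible members such as Hspa1a, Hspa1b, Hsph1, Hsp90aa1 and Dnajb1, while Hspa8 and Hsp90ab1 are made in unstressed cells. Proteostasis is studied in HSCs because these cells make protein slowly.

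Values are FPKM, that is, fragment numbers scaled by transcript length and by library total, so levels may be compared between genes. They carry no read counts, which leaves the depth unknown and allows no interval for counting error. Ctrl replicate 1 stood apart, since 44.1% of its rows were at 0 and the other 11 libraries had 24.7% to 27.3%. Nppa, a heart atrium transcript, had 51.2 to 63.9 FPKM in all IR libraries and in Ctrl replicates 2 and 3, but at most 0.26 FPKM in the other 7. Between IR and either Ab_IR or L_IR this split cannot be told apart from the group except through Ctrl replicate 1. Of the markers the gate selects for, Kit was at 6.7 to 7.0 FPKM in IR and 17.4 to 25.5 FPKM elsewhere, whereas Ly6a (Sca-1) was at 53.7 to 61.5 FPKM in IR and 25.9 to 45.8 FPKM elsewhere. Of those it selects against, Cd34 was at 3.66 to 3.91 FPKM in IR and 15.6 to 20.6 FPKM elsewhere, and Flt3 at 0.96 to 1.22 FPKM in IR and 5.60 to 12.1 FPKM elsewhere. Of the HSC markers, Hlf was at 1.14 to 2.40 FPKM, Meis1 at 0.31 to 1.82 FPKM, Procr at 0.30 to 1.26 FPKM, Slamf1 at 0.20 to 0.88 FPKM, Mecom at 0.04 to 0.25 FPKM and Hoxb5 at 0 to 0.07 FPKM over all 12 libraries.

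Positions are those of GENCODE M21 on GRCm38. Hspa1a (chromosome 17, 34969190 to 34972156) and Hspa1b (chromosome 17, 34956436 to 34959238) lie in tandem on the minus strand, 9951 bp apart, each as a single exon. Their coding sequences of 1923 and 1926 bases differ at 8 aligned bases (99.43% identity), and 47.07% of the 100-base windows of Hspa1a also occur in Hspa1b, so their single values are uncertain. Hspd1 (chromosome 1, 55077835 to 55088243, minus strand) and Hspe1 (chromosome 1, 55088132 to 55091307, plus strand) stand head to head and overlap by 112 bp. Of their 100-base windows, 26.94% for Hspd1 and 20.44% for Hspe1 also occur in other genes. Hspa8 lies on chromosome 9 (40800984 to 40810087, plus strand), Hsp90aa1 on chromosome 12 (110690605 to 110702728, minus strand) and Hsp90ab1 on chromosome 17 (45567775 to 45573271, minus strand). Hsph1 (chromosome 5, 149614287 to 149636376, minus strand) and Dnajb1 (chromosome 8, 83608193 to 83612653, plus strand) share no 100-base window with another gene, and nor does Hsp90ab1. Gm20481 overlaps Hspa1a on the opposite strand, and without knowing the counting strand, reads of such overlaps cannot be parted.

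Promoter windows of 6 members, from RefSeq on GRCm38.p6, run from 250 bases before to 50 bases after an annotated start. They were searched on both strands for a 3-unit heat shock element (GAANNTTCNNGAA or TTCNNGAANNTTC), a 2-unit element (GAANNTTC or TTCNNGAA), which every 3-unit element contains, a TATA box (TATAAA) and a CCAAT box (CCAAT). Of all 32851 windows, 0.6027% held the 3-unit element, 15.06% the 2-unit element, 13.62% the TATA box and 37.41% the CCAAT box. Shown are the near-identical pair of the inducible HSP70 genes, the window shared by the chaperonin pair, and the windows of the HSP110 gene and the J-domain gene, which moved in opposite directions. Capitals mark the longest heat shock element match of a window, 5′ to 3′ on the strand of the gene.
Hspa1a, chr17:34972107-34972406, minus strand: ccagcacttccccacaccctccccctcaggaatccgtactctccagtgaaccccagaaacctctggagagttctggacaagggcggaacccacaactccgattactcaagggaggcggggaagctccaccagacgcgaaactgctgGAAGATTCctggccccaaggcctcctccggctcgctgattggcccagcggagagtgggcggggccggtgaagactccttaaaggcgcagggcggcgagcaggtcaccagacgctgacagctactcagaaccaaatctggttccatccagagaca
Hspa1b, chr17:34959189-34959488, minus strand: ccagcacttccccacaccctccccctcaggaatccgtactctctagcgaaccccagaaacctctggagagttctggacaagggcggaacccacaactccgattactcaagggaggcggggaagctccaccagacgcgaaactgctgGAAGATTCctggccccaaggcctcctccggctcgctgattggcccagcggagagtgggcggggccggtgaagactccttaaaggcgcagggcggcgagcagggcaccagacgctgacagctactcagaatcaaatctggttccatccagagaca
Hspe1, chr1:55087898-55088197, plus strand: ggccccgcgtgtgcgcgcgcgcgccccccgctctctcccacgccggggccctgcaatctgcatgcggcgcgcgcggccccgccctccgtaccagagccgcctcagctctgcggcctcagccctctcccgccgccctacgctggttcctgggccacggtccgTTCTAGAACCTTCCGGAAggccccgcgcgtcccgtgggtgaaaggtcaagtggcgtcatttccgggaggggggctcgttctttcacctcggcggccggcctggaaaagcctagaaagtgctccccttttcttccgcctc
Hsph1, chr5:149636266-149636565, minus strand: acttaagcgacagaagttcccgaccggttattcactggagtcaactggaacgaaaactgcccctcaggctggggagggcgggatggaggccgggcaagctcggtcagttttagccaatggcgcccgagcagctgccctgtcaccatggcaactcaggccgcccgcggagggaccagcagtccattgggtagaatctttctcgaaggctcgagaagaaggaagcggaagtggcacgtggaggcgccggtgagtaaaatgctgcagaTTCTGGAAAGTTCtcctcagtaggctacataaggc
Dnajb1, chr8:83607925-83608224, plus strand: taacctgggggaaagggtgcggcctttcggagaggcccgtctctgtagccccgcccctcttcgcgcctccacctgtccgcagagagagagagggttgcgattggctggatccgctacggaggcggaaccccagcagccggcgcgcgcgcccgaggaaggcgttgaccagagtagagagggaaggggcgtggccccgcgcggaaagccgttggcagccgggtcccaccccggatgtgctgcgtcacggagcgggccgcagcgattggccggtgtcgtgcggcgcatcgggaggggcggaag

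The Hspa1a and Hspa1b windows were identical at 296 of 300 positions. Each held a single 2-unit element, which began 104 bases before the start, and a CCAAT box. The Hspe1 window held an 18-base run with 2 overlapping 3-unit elements from 89 bases before its start. A window of Hspd1 covers 285 of the same bases on the other strand, with the run beginning 144 bases before the Hspd1 start. In Hsph1 the 3-unit element began 15 bases after the start shown, and a separate 2-unit element, left in lower case, began 54 bases before it. The Dnajb1 window held 2 CCAAT boxes and no element of these letters. None of the 5 windows shown held the TATA box. These matches are letters in a window and not measured binding.

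IR was set against Ctrl to see which transcripts differed at day 3 after irradiation. Of the 10 chaperones, 6 rose (Hspa1a, Hspa1b, Hsp90aa1, Hsp90ab1, Hsph1 and Hspd1), 1 fell (Dnajb1) and 3 did not pass (Hspa8, Hspe1 and Hspa9), passing meaning an adjusted p under 0.05 in limma over all 12072 genes tested. Among all genes tested 17.5% rose and 25.5% fell. With the further demand of an absolute log2 fold change above 1, which defines a called gene here, Hspa1a, Hspa1b and Hsph1 were called, against 7.60% of all genes. The median difference of the 10 on the log2(FPKM + 1) scale was 0.58, against -0.05 over all genes tested. Without Ctrl replicate 1, 7 chaperones rose and 1 fell, the added gene being Hspa8, and the same 3 were called, in a fit where 25.9% of all genes rose and 32.5% fell. In sorted bulk RNA, a change in the share of cells of a type and a change in RNA per cell cannot be told apart.

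Ab_IR and L_IR were each compared with IR, and both comparisons use the same 3 IR libraries. In Ab_IR 5 chaperones were lower than in IR (Hsp90aa1, Hsp90ab1, Hsph1, Hspd1 and Hspe1) and Dnajb1 was higher, where 29.4% of all genes were lower and 39.4% higher. In L_IR 6 were lower, the same genes and Hspa8, and Dnajb1 was higher, where 26.0% of all genes were lower and 40.8% higher. Hsph1 was the single member called in each comparison, against 7.57% of all genes in Ab_IR and 6.22% in L_IR. The median difference of the members was -0.11 in Ab_IR and -0.19 in L_IR, against 0.06 and 0.07 over all genes. Hspa1a and Hspa1b passed in neither.

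Against Ctrl, whose 3 libraries both comparisons share, fewer members passed. In Ab_IR the 2 chaperones that passed were Hspa1a and Hspa1b, both higher and both called, where 1.45% of all genes were higher, 0.651% were lower and 0.923% were called. In L_IR the same 2 genes passed, both higher and called, where 4.76% of all genes were higher, 4.08% lower and 2.65% called. Without Ctrl replicate 1 these counts were 2 in Ab_IR, where 3.56% of all genes were then higher, and 4 in L_IR, where 10.4% were, the latter adding Hspa8 and Hsp90ab1. Directly between Ab_IR and L_IR, Dnajb1 was higher and Hsp90ab1 and Hsph1 were lower in Ab_IR, where 18.2% of all genes were higher and 19.8% lower. No member was called there and 4 had an unadjusted p under 0.05 in limma, the single tool run, where 0.533% of all genes were called.

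**Figure D1:**
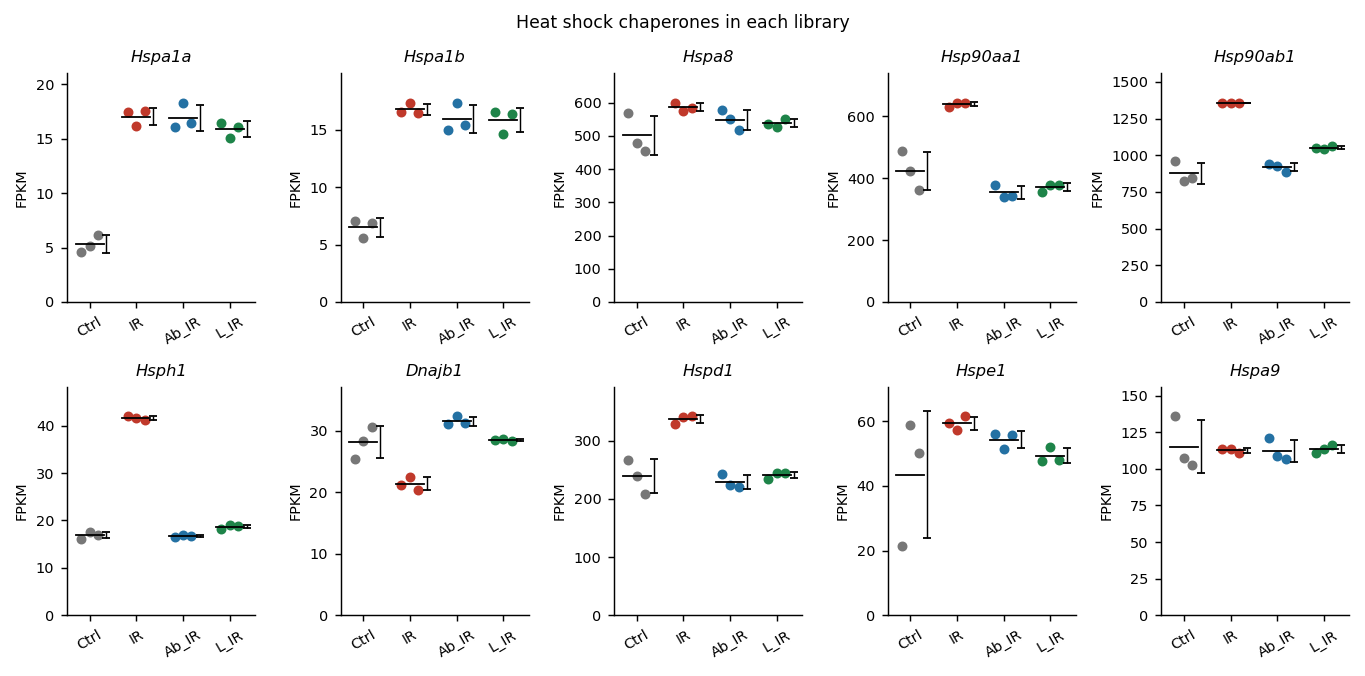
FPKM of each of the 10 chaperones (y axis, from 0) in the 3 libraries of Ctrl, IR, Ab_IR and L_IR (x axis), with points for libraries, horizontal lines for group means and bars for ± 1 SD. Hspa1a and Hspa1b stood high in all 9 irradiated libraries, Hsph1, Hsp90aa1, Hsp90ab1 and Hspd1 stood high in the 3 IR libraries, and Dnajb1 was lowest in IR.

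The inducible HSP70 genes rose after irradiation, and their differences between irradiated groups did not pass as fitted here. Hspa1a, which encodes an HSP70 scarce in unstressed cells, was at 4.63, 5.15 and 6.19 FPKM in Ctrl and at 17.4, 16.1 and 17.6 FPKM in IR. It was at 16.1, 18.3 and 16.4 FPKM in Ab_IR and at 16.5, 15.1 and 16.1 FPKM in L_IR. All 9 irradiated libraries lay above all 3 Ctrl libraries, and the irradiated groups overlapped each other. The mean rose 3.20-fold from 5.32 ± 0.794 to 17.1 ± 0.784 FPKM (SD, n = 3) in IR, and the difference of mean log2(FPKM + 1), which is the log2 fold change given throughout, was 1.52 (SE 0.102, adjusted p 0.000123, limma). Ab_IR differed from IR by -0.01 (SE 0.0587, adjusted p 0.874) and L_IR by -0.09 (SE 0.0460, adjusted p 0.109) on that scale.

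Its neighbour Hspa1b, which encodes nearly the same protein, was at 7.04, 5.56 and 6.86 FPKM in Ctrl and 16.5, 17.3 and 16.5 FPKM in IR. The Ab_IR libraries were at 15.0, 17.3 and 15.4 FPKM and the L_IR libraries at 16.5, 14.6 and 16.4 FPKM. As for Hspa1a, Ctrl was below every irradiated library. The log2 fold change of Hspa1b was 1.25 in IR (SE 0.0927, adjusted p 0.000176), 1.18 in Ab_IR (SE 0.105, adjusted p 0.00340) and 1.17 in L_IR (SE 0.1002, adjusted p 0.00105) against Ctrl. For Hspa1a the latter values were 1.51 (SE 0.109, adjusted p 0.00160) and 1.43 (SE 0.102, adjusted p 0.000482). Reads of the pair cannot be parted over their shared windows, and the sum of both rows was 10.7 to 13.1 FPKM in Ctrl, while the irradiated libraries had 33.5 to 34.0 (IR), 31.0 to 35.6 (Ab_IR) and 29.8 to 33.0 (L_IR). Without Ctrl replicate 1 the log2 fold change in IR was 1.44 for Hspa1a and 1.31 for Hspa1b. Some alternatives brought small differences from IR past the test. In Ab_IR, Hspa1b passed with immunoglobulin genes left out (-0.22) or without Ab_IR replicate 2 (-0.13). In L_IR, Hspa1a passed under scaling by the median log2 ratio (-0.16) or without IR replicate 2 (-0.13), and Hspa1b under the median scaling (-0.15).

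Hspa8, which encodes the constitutive HSP70 (HSC70), far exceeded the inducible genes in level. Its row was at 569, 480.1 and 455 FPKM in Ctrl, 599, 575 and 584 FPKM in IR, 577, 552 and 518 FPKM in Ab_IR and 536, 528 and 552 FPKM in L_IR. The ratio of Hspa8 to the summed Hspa1a and Hspa1b was 34.9 to 48.7 in Ctrl and 15.5 to 18.6 in the irradiated libraries, which do not overlap. All IR libraries lay above all Ctrl libraries of Hspa8, but the log2 fold change of 0.23 did not pass (SE 0.0996, adjusted p 0.109), whereas without Ctrl replicate 1 it was 0.33 and passed. L_IR differed from IR by -0.12 (SE 0.0273, adjusted p 0.00649), which no longer passed with all 12 libraries in one fit. Ab_IR differed from IR by -0.09 (SE 0.0466, adjusted p 0.108), which did pass under scaling by the median log2 ratio (-0.15), with immunoglobulin genes left out (-0.25), with the Nppa split as a term (-0.38) and without Ab_IR replicate 1 (-0.13).

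Reads of Hspa8 may be split with another row. Of its 100-base windows 58.47% also occur in Gm15459, a processed pseudogene on chromosome 5 named here after its values were seen, and the row of Gm15459 was higher than that of Hspa8 in every library. Gm15459 was at 678, 635 and 658 FPKM in Ctrl, 917, 929 and 924 FPKM in IR, 589, 598 and 549 FPKM in Ab_IR and 638, 611 and 644 FPKM in L_IR. The IR libraries of this row stood above all others, with a log2 fold change of 0.49 against Ctrl (SE 0.0691, adjusted p 0.00217). Ab_IR differed from IR by -0.67 (SE 0.0413, adjusted p 8.30e-06) and L_IR by -0.55 (SE 0.0269, adjusted p 4.14e-06). With both rows added, an alternative chosen after seeing the data, the log2 fold change of Hspa8 passed at 0.38 in IR against Ctrl, -0.42 in Ab_IR against IR and -0.37 in L_IR against IR. Added FPKM of rows of unequal length are a rough sum, and which locus the reads came from was not tested.

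**Figure D2:**
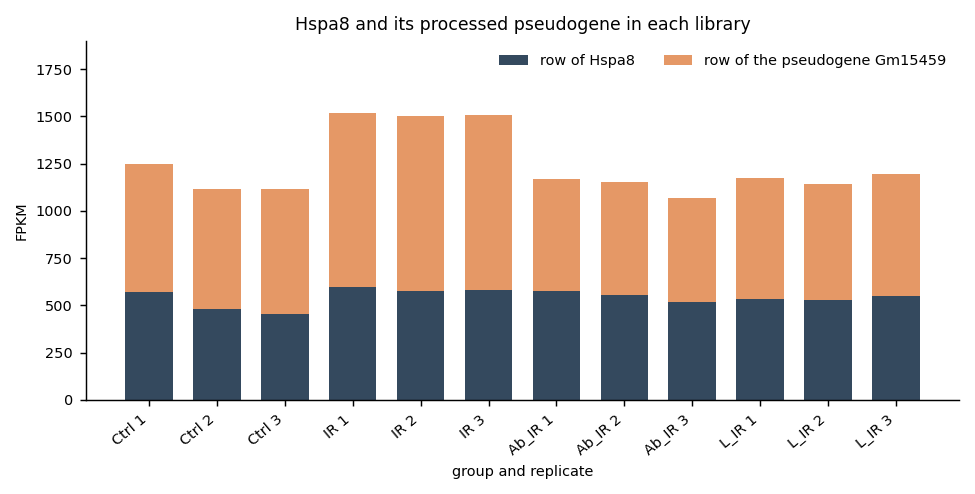
FPKM (y axis, from 0) of the Hspa8 row and, stacked on it, of the pseudogene Gm15459 in each of the 12 libraries (x axis, group and replicate). The stacked sum was 1503 to 1516 in the 3 IR libraries and 1067 to 1247 in the other 9.

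Both cytosolic HSP90 genes rose in IR and stood lower again in Ab_IR and L_IR. Hsp90aa1, which encodes the stress-inducible alpha form, was at 487, 422 and 363 FPKM in Ctrl, 631, 643 and 643 FPKM in IR, 379, 339 and 344 FPKM in Ab_IR and 356, 378 and 378 FPKM in L_IR. Every IR library lay above the other 9, and Ctrl overlapped both other groups. The log2 fold change was 0.60 in IR against Ctrl (SE 0.115, adjusted p 0.00703), -0.85 in Ab_IR against IR (SE 0.0477, adjusted p 5.32e-06) and -0.78 in L_IR against IR (SE 0.0298, adjusted p 1.31e-06). Under quantile normalization the first was 0.53 and did not pass. Neither group passed against Ctrl, with -0.25 for Ab_IR (adjusted p 0.287) and, from the same Ctrl libraries, -0.18 for L_IR (adjusted p 0.384) in limma. Of the 100-base windows of Hsp90aa1, 39.57% also occur in the pseudogene Gm12346, at 17.0 to 33.1 FPKM, and with that row added the value in IR was 0.61.

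Hsp90ab1, which encodes the constitutive beta form, had the highest row of the 10 in every library. With the Gm15459 row added, Hspa8 stood above Hsp90ab1 in every library, for instance at 1503 to 1516 FPKM in IR. Their order therefore depends on how shared reads were assigned. Hsp90ab1 was at 960, 824 and 845 FPKM in Ctrl, 1356, 1353 and 1354 FPKM in IR, 940, 925 and 888 FPKM in Ab_IR and 1051, 1043 and 1064 FPKM in L_IR. Here L_IR lay above all Ctrl and all Ab_IR libraries, and IR above all others. The log2 fold change was 0.63 in IR against Ctrl (SE 0.0878, adjusted p 0.00207), -0.56 in Ab_IR against IR (SE 0.0357, adjusted p 9.78e-06), -0.36 in L_IR against IR (SE 0.0218, adjusted p 1.03e-05) and -0.20 in Ab_IR against L_IR (SE 0.0375, adjusted p 0.00615). The last of these did not pass with no filter on low values. The 3 IR values had a coefficient of variation of 0.101%, against 8.35% in Ctrl. The ratio of Hsp90ab1 to Hsp90aa1 was 1.95 to 2.33 in Ctrl and 2.10 to 2.15 in IR. It was 2.48 to 2.73 in Ab_IR and 2.76 to 2.95 in L_IR, so the ratio in both latter groups lay above that in Ctrl and IR.

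Hsph1, the exchange factor of the HSP110 family, was the member with the largest differences of Ab_IR and L_IR from IR. It was at 16.2, 17.6 and 17.0 FPKM in Ctrl, 42.0, 41.7 and 41.3 FPKM in IR, 16.6, 17.0 and 16.8 FPKM in Ab_IR and 18.3, 19.1 and 18.8 FPKM in L_IR. The mean rose 2.46-fold, from 16.9 ± 0.733 to 41.6 ± 0.350 FPKM (SD, n = 3), with a log2 fold change of log2(FPKM + 1) values of 1.25 (SE 0.0579, adjusted p 3.29e-05, limma). Ab_IR differed from IR by -1.26 (SE 0.0317, adjusted p 1.58e-07) and L_IR by -1.11 (SE 0.0259, adjusted p 1.80e-07). Ab_IR overlapped Ctrl, with a difference of -0.01 (SE 0.0658, adjusted p 0.935). L_IR lay above all Ctrl libraries, at 0.14 (SE 0.0610, adjusted p 0.227), which did not pass, and Ab_IR differed from L_IR by -0.15 (SE 0.0358, adjusted p 0.0162), which no longer passed without L_IR replicate 2 or 3 (both -0.14).

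Dnajb1, a J-domain partner of HSP70, moved the other way although it is itself a heat-inducible gene. It was at 25.4, 28.4 and 30.7 FPKM in Ctrl, 21.2, 22.5 and 20.5 FPKM in IR, 31.1, 32.4 and 31.2 FPKM in Ab_IR and 28.5, 28.8 and 28.3 FPKM in L_IR. Every IR library lay below all others, and every Ab_IR library above all others. The log2 fold change was -0.38 in IR against Ctrl (SE 0.0849, adjusted p 0.0131), 0.54 in Ab_IR against IR (SE 0.0442, adjusted p 3.32e-05), 0.40 in L_IR against IR (SE 0.0375, adjusted p 9.27e-05) and 0.14 in Ab_IR against L_IR (SE 0.0343, adjusted p 0.0166). The difference in IR no longer passed without IR replicate 1 or without IR replicate 3, which left -0.37 and -0.35. The difference between Ab_IR and L_IR no longer passed without any one of the L_IR libraries, at 0.14 to 0.15, in one fit of all 12 libraries (0.14), and under quantile normalization (0.09). With immunoglobulin genes left out the difference was 0.00026.

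**Figure D3:**
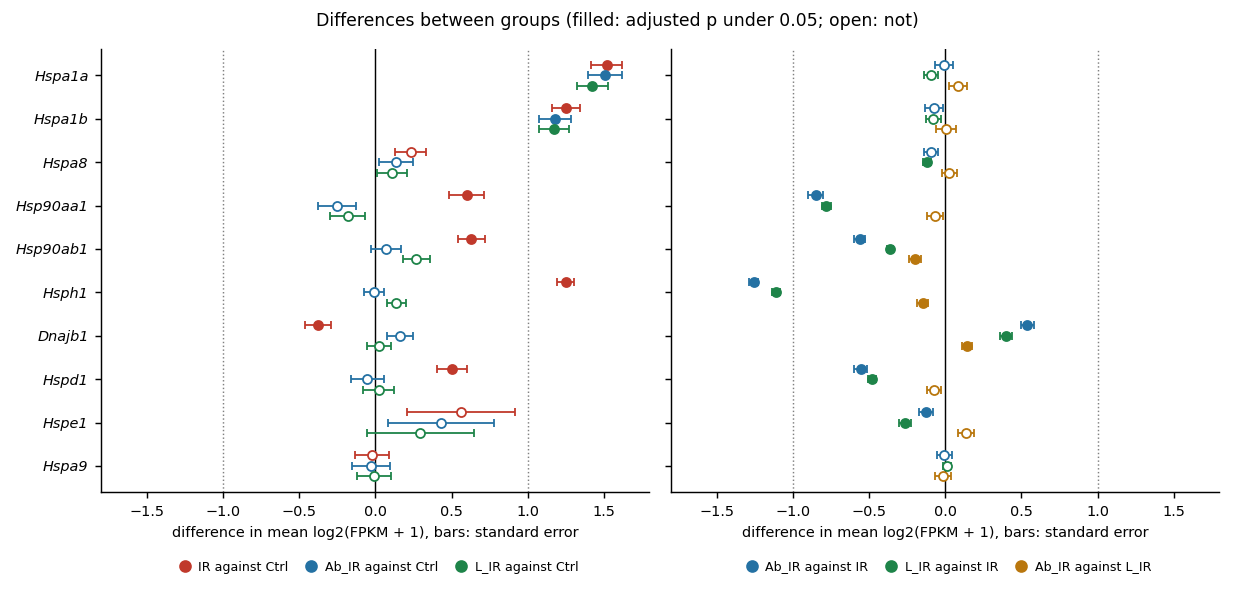
Differences between group means on the log2(FPKM + 1) scale (x axis) for the 10 chaperones (y axis), against Ctrl on the left and among irradiated groups on the right, with bars for the standard error, filled points for an adjusted p under 0.05 and dotted lines at -1 and 1. Hspa1a and Hspa1b lay above 1 in all 3 comparisons with Ctrl, and Hsph1 lay above 1 in IR against Ctrl and below -1 against IR.

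In mitochondria the chaperonin ring gene Hspd1 followed the HSP90 genes. It was at 267, 240.0 and 209 FPKM in Ctrl, 330, 341 and 342 FPKM in IR, 242, 224 and 221 FPKM in Ab_IR and 235, 244 and 245 FPKM in L_IR. Every IR library lay above the other 9. The log2 fold change was 0.50 in IR against Ctrl (SE 0.0999, adjusted p 0.00809), -0.56 in Ab_IR against IR (SE 0.0436, adjusted p 2.68e-05) and -0.48 in L_IR against IR (SE 0.0274, adjusted p 7.88e-06). Under quantile normalization the first was 0.40 and did not pass. Neither group passed against Ctrl, with -0.05 for Ab_IR (adjusted p 0.779) while L_IR had 0.02 (adjusted p 0.915) in limma.

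Hspe1, the lid of the same chaperonin and its head-to-head neighbour, did not rise past the test. It was at 21.4, 58.8 and 50.2 FPKM in Ctrl, 59.3, 57.4 and 61.5 FPKM in IR, 56.0, 51.3 and 55.6 FPKM in Ab_IR and 47.8, 52.0 and 48.1 FPKM in L_IR. Ctrl replicate 1 was far below all other libraries, and its ratio of Hspd1 to Hspe1 was 12.5 where the other 11 had 3.98 to 5.94. The log2 fold change in IR against Ctrl was 0.56 (SE 0.353, adjusted p 0.246) and without Ctrl replicate 1 it was 0.13 and did not pass. Ab_IR differed from IR by -0.13 (SE 0.0464, adjusted p 0.0413) and L_IR by -0.26 (SE 0.0415, adjusted p 0.00115). The former no longer passed without Ab_IR replicate 2 (-0.09), IR replicate 1 (-0.13) or IR replicate 3 (-0.10), with no filter on low values or without the trend in limma, and neither passed with all 12 libraries in one fit. With the Nppa split as a term over all 12 libraries, which rests on Ctrl replicate 1, they turned to 1.18 and 1.04.

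Hspa9, the mitochondrial HSP70, passed in none of the 6 comparisons in limma as fitted here, nor had it an unadjusted p under 0.05. In Ab_IR against IR it did pass with immunoglobulin genes left out (-0.16) and with the Nppa split as a term (-0.38), and in L_IR against IR with the latter (-0.36). With that term, which rests on Ctrl replicate 1, it also passed in Ab_IR (-0.27) and L_IR (-0.26) against Ctrl. Its gene lies on chromosome 18 (34937414 to 34954357, minus strand) and shares no 100-base window with another. It was at 136, 107 and 102 FPKM in Ctrl, 114, 113 and 111 FPKM in IR, 121, 109 and 107 FPKM in Ab_IR and 111, 113 and 117 FPKM in L_IR. All groups overlapped, and the log2 fold change in IR against Ctrl was -0.02 (SE 0.112, adjusted p 0.898). The ratio of Hspd1 to Hspa9 was 2.90 to 3.09 in the IR libraries and 1.97 to 2.23 in the other 9, so IR stood apart.

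Together the 10 rows held 0.566% to 0.724% of the FPKM sum of a library in Ctrl and 0.851% to 0.857% in IR. The share was 0.546% to 0.608% in Ab_IR and 0.609% to 0.625% in L_IR. Hsp90ab1, Hsp90aa1 and Hspa8 make up most of that sum.

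The partners of these chaperones were counted from lists that were chosen with earlier results of these data known. Of 17 HSP90 co-chaperones, 8 rose (47.1%, against 17.5% of all genes) and 0 fell (against 25.5%) in IR against Ctrl, and also 0 had an unadjusted p under 0.05 for a fall in limma, with a median difference of 0.21. Fkbp5, an immunophilin of steroid receptor complexes, was at 9.23 to 10.6 FPKM in Ctrl, 16.5 to 18.1 FPKM in IR, 9.73 to 10.7 FPKM in Ab_IR and 10.46 to 10.9 FPKM in L_IR, and changed by 0.77 in IR (adjusted p 0.000442). Stip1 (HOP), which links HSP70 to HSP90, was at 121 to 138 FPKM in Ctrl and 174 to 184 FPKM in IR, with a log2 fold change of 0.50 (adjusted p 0.00287), and Chordc1 changed by 0.44 (adjusted p 0.0155). In Ab_IR 10 of the 17 were lower (58.8%, against 29.4% of all genes) and 1 (Ahsa2, 0.13) was higher than in IR, and in L_IR 13 were lower (76.5%, against 26.0%) and 0 higher, also with 0 higher at an unadjusted p under 0.05. Against Ctrl, limma passed 0 of 17 in Ab_IR, where 0 had an unadjusted p under 0.05, and 0 of 17 in L_IR, where 3 did, in comparisons where 1.45% and 4.76% of all genes were higher and 0.651% and 4.08% lower. Without Ctrl replicate 1, 10 rose and 0 fell in IR, where 25.9% of all genes then rose and 32.5% fell. In L_IR against Ctrl 1 was then higher and 1 lower, beside 10.4% and 9.95% of all genes. In Ab_IR 0 passed, beside 3.56% higher and 2.09% lower.

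J-domain proteins and exchange factors were counted in the same way. Of 20 tested, 1 rose (St13, which binds HSP70, by 0.35) and 7 fell in IR (35.0%, against 25.5% of all genes), with a median difference of -0.05 that equals the -0.05 over all genes, and without Ctrl replicate 1 these counts were 3 and 9, beside 25.9% and 32.5% of all genes. The J-domain genes Dnaja4, Dnajb4 and Dnajb2 fell by 1.10, 0.96 and 0.87 on the log2 scale in IR (adjusted p 0.00331, 0.000205 and 0.000344 in limma), each from a level under 5 FPKM. In Ab_IR 11 of 20 were higher and 5 lower than in IR (Dnaja1, Dnajc2, Dnajc5, Bag4 and St13), against 39.4% higher and 29.4% lower among all genes. In L_IR 8 were higher and 6 lower, shares near the 40.8% and 26.0% of all genes. Of these 3 genes, Dnajb2 was at 3.81 to 4.31 FPKM in Ctrl, 1.69 to 1.77 FPKM in IR, 3.68 to 4.37 FPKM in Ab_IR and 2.51 to 2.65 FPKM in L_IR.

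Other partner lists are read against the 17.5% of all genes that rose and the 25.5% that fell in IR. Among 6 tested relatives of HSP70 and HSP110, Hspa13 and Hspa14 rose and Hspa2 fell. Hspa13, an HSP70 relative of the endoplasmic reticulum, changed by 0.36 in IR (adjusted p 0.00750) and -0.52 in Ab_IR against IR (adjusted p 7.48e-05). Hspa4 and Hspa4l, both of the HSP110 family like Hsph1, changed by 0.24 and 0.29 in IR, which did not pass (adjusted p 0.135 and 0.112, limma), and by -0.36 and -0.62 in Ab_IR against IR, which did. Of the 15 genes of the chaperonin TRiC and its cofactor prefoldin, Cct7 alone passed in IR (6.67%, under the background), with 0.31 (adjusted p 0.0149), and in Ab_IR 6 were lower and 3 (Pfdn1, Pfdn5 and Pfdn6) higher than in IR, where 29.4% of all genes were lower and 39.4% higher. Of 16 mitochondrial partners and proteases, Grpel1 (0.43, the exchange factor of HSPA9) and the protease gene Htra2 (0.30) rose and Hscb (-0.49, a J-domain protein of iron-sulfur cluster assembly) fell in IR, shares of 12.5% and 6.25% that are also under the background. Without Ctrl replicate 1, 4 rose and 1 fell among the HSP70 relatives, 3 rose and 1 fell among the TRiC and prefoldin genes, and 4 rose and 3 fell among the mitochondrial partners, while 25.9% of all genes rose and 32.5% fell.

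Of 3 transcripts of heat shock factors and their binding protein tested, 0 passed in IR against Ctrl in limma and 0 had an unadjusted p under 0.05. Of all genes 17.5% rose and 25.5% fell there. Hsf1 was at 6.78 to 7.42 FPKM in Ctrl and 6.42 to 6.80 in IR, with 6.86 to 7.17 in Ab_IR and 7.03 to 7.78 in L_IR. Hsf1 passed in L_IR against IR, where 40.8% of all genes were higher, and in no other of the 6 comparisons, by 0.16 (adjusted p 0.0205). Hsbp1, which encodes a small protein that binds heat shock factors, passed in Ab_IR against IR, by 0.15 (adjusted p 0.0346), and against L_IR, by 0.19. Of all genes 39.4% and 18.2% were higher in these comparisons.

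Among the small heat shock protein genes, Hspb6 was at 4.07 to 5.38 FPKM in Ctrl, 2.82 to 3.13 FPKM in IR, 3.67 to 4.96 FPKM in Ab_IR and 3.37 to 4.12 FPKM in L_IR. It fell in IR by 0.50 on the log2 scale (adjusted p 0.00905) and was higher than in IR in Ab_IR by 0.40 (adjusted p 0.00602) and in L_IR by 0.25 (adjusted p 0.0155, limma). Hspb11 was at 0.74 to 0.98 FPKM in IR and 1.09 to 1.70 FPKM in Ab_IR, and entered that comparison through Ab_IR alone, so no test is given. Hspb1, Hspb7 and Cryab were at 1.07 to 3.29 FPKM in IR, at most at 0.63 FPKM in every Ab_IR and L_IR library, and at 0 to 3.94 FPKM in Ctrl. They entered the comparisons with IR through the IR libraries alone, so only a fall could show and no test is given. The same holds for heart muscle markers, whose summed level was 123 to 157 FPKM in IR, 0.87 to 1.12 FPKM in Ab_IR and L_IR, where Sln, Actc1, Ryr2 and Nppb were listed at 0, and 1.24 to 149 FPKM in Ctrl. The part of heart transcripts in the chaperone results was not tested.

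**Figure D4:**
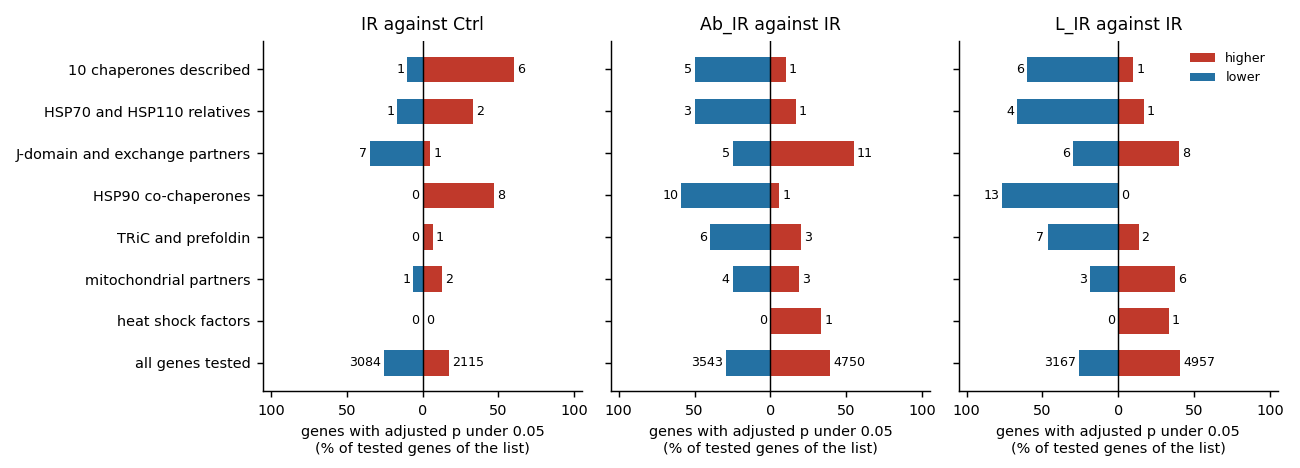
Share of the tested genes of each list (x axis, percent) with an adjusted p under 0.05, higher to the right and lower to the left with their counts, in 3 comparisons. HSP90 co-chaperones had 8 higher and 0 lower genes in IR against Ctrl and 13 lower and 0 higher in L_IR against IR.

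Which genes ran most like the chaperones was measured as the root mean square difference of centred log2(FPKM + 1) over the 12 libraries, among the 5027 genes whose mean reached 10 FPKM. Nearest to Hspa1a was Hspa1b (0.164), followed by Iglc1 (0.222), Gm3375 (0.236), Iglj1 (0.243) and Igkv4-53 (0.260), of which 3 are immunoglobulin light chain genes. Nearest to Hspd1 were Gmppb (0.0530), Ptpn12 (0.0588), Sla (0.0597), Hspa5 (0.0609) and Chp1 (0.0622). Hspa5 encodes BiP, the HSP70 of the endoplasmic reticulum, and had a group mean of 617 FPKM in IR and of 415 (Ctrl), 428 (Ab_IR) and 419.8 FPKM (L_IR) elsewhere. The 12 values of a gene share their libraries, so these distances are descriptions.

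Markers of other blood cells moved with the groups as well, in comparisons where 17.5% of all genes rose and 25.5% fell (IR against Ctrl). Of the plasma cell markers 9 of 10 rose in IR, and their sum was 10054 to 13263 FPKM in Ctrl and 17484 to 18703 FPKM in IR. It was 17867 to 18498 FPKM in Ab_IR and 25611 to 26481 FPKM in L_IR. Most of that sum was Igkc, an immunoglobulin light chain gene, at 9409 to 12526 FPKM in Ctrl and 16760 to 17305 FPKM in Ab_IR. By count, 3 of 10 plasma cell markers passed as higher in Ab_IR against Ctrl (1.45% of all genes) and 9 in L_IR (4.76%), and 6 were lower and 3 higher in Ab_IR than in IR (29.4% and 39.4% of all genes). Without Ctrl replicate 1, 7 passed as higher in Ab_IR against Ctrl (3.56% of all genes) and 9 in L_IR (10.4%). Of the neutrophil and monocyte markers 7 of 12 rose in IR, with sums of 9840 to 11603, 14838 to 15160, 10743 to 11362 and 8460 to 8680 FPKM for Ctrl, IR, Ab_IR and L_IR. Eosinophil, mast cell and basophil markers fell in 10 of 10, with sums of 4643 to 6165, 452 to 462, 6714 to 6871 and 2909 to 2949 FPKM. Erythroid markers fell in 8 of 8 tested, with sums of 2465 to 3017, 442 to 453, 2560 to 2764 and 1313 to 1368 FPKM. Sums of the megakaryocyte and platelet markers were 64.8 to 76.0, 13.9 to 16.2, 150.3 to 153 and 92.4 to 98.8 FPKM. Of these markers 8 reached 1 FPKM in all Ctrl libraries and 3 in all IR libraries. Part of them entered IR against Ctrl through Ctrl alone and could only fall, so no count is given. Macrophage markers, of which 2 rose and 4 fell of 9, had sums of 68.7 to 77.8, 47.7 to 54.7, 73.4 to 81.1 and 66.8 to 74.7 FPKM. B and T cell markers had sums of 37.1 to 44.5, 29.7 to 31.9, 52.2 to 54.2 and 64.2 to 65.4 FPKM. Of the B and T cell markers 7 reached 1 FPKM in all Ctrl libraries and 4 in all IR libraries. Here too part entered through Ctrl alone and could only fall, so no count is given. No defining marker of these 7 lists was listed at 0 across a group. The part of these cells in the chaperone results was not tested.

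Immediate early genes, which are induced by cell handling among other signals, were counted beside the chaperones. Of 17 tested, 13 fell (76.5%, against 25.5% of all genes) and 0 rose in IR (against 17.5%, and also 0 at an unadjusted p under 0.05 in limma), with a summed level of 2014 to 2249 FPKM in Ctrl, 1383 to 1401 FPKM in IR, 1891 to 1981 FPKM in Ab_IR and 1377 to 1498 FPKM in L_IR. Nr4a1, a nuclear receptor gene, was at 36.4 to 39.5 FPKM in Ctrl, 7.22 to 8.24 FPKM in IR, 27.5 to 29.8 FPKM in Ab_IR and 18.6 to 19.6 FPKM in L_IR. Atf3, a stress transcription factor gene, was at 15.3 to 19.4, 5.26 to 5.85, 22.8 to 23.0 and 15.9 to 16.6 FPKM in the same order. Thus the IR libraries were the highest for Hsph1 and the HSP90 genes and the lowest for Atf3, Nr4a1 and Dnajb1. The whole list did not share that order. Fos, its highest gene in every group, was lowest in L_IR, at 259 to 263 FPKM against 307 to 320 FPKM in IR. Fosb was also lowest in L_IR, at 63.9 to 67.4 FPKM against 82.2 to 86.5 FPKM in IR. Klf2 was at 70.0 to 88.7, 68.0 to 71.5, 60.8 to 72.2 and 23.6 to 28.7 FPKM, with L_IR below all others.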

How the data were processed

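RNA of sorted bone marrow cells was sequenced as stranded poly(A) libraries, 3 for each of 4 groups set by the labels. The authors deposited 1 table per library of gene names with values read here as FPKM. Their processing notes name fastp, HISAT2 and StringTie with GRCm38/mm10, and the methods of the study name RSEM, so which tool gave these values is not settled. Whether strand was used in counting is not given in the sources used here. No table column belonged to another sample. Low values show no whole-read steps, so depth is unknown and a count test such as DESeq2, which the authors used, was not applied.

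Each comparison was a moderated linear model of its own 2 groups in limma 3.58.1 (R 4.3.3, trend on), on log2(FPKM + 1). Genes reaching 1 FPKM in 3 or more of the 6 libraries entered, and p-values were adjusted by Benjamini-Hochberg over all of them. The pseudocount understates the change of low genes. Genes with an adjusted p under 0.05 passed, and those with an absolute log2 fold change above 1 as well were called. The alternatives were another pseudocount, other filters, normalizations and fits, and each library left out. The fit was tested on simulated data with 200 changed genes.

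The members and lists were chosen with earlier results of these data known. Named were all members, at most 3 genes of each other chaperone list with the largest change among those passing in any comparison, genes behind counts of 5 or fewer, and the 5 genes nearest in pattern to Hspa1a and Hspd1. St13, Hspa14, Hspa2, Htra2, Gm15459, Gm12346, the markers and the immediate early genes were named after their values were seen. Sequences were matched by symbol to RefSeq and positions to GENCODE M21. Plots were made in matplotlib 3.10.9 under Python 3.11.15.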

Additional observations from a re-analysis of the deposited data

How the results depend on the processing

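Each of the 60 member differences was recomputed under the alternatives, giving 1150 values, of which 1026 kept direction and side of the threshold. Of the 27 differences that passed, 18 still passed under every alternative run, and 2 (Hspe1 in Ab_IR and in L_IR against IR) turned direction under one. Most turned directions belong to differences near 0 that did not pass, and the cause was not tested.

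With the Nppa split as a term over 12 libraries, members called rose from 1 to 3 in Ab_IR and in L_IR against IR, and members passing from 2 to 7 in Ab_IR and 8 in L_IR against Ctrl. Shares of all genes under the alternatives are not given in this section. Its member counts therefore do not show whether the members or all genes passed more often. Hspe1 turned to 1.18 in Ab_IR and 1.04 in L_IR against IR, Hspa1a to 0.23 and 0.15 there, Hspa9 to -0.36 in L_IR against IR and 0.10 in IR against Ctrl. Against Ctrl, Hspa8 turned to -0.053 in Ab_IR and -0.079 in L_IR, Hsp90ab1 to -0.066 and Hsph1 to 0.052 in Ab_IR, and Hspd1 to -0.15 in L_IR. These 5 values also came from Ctrl replicate 1 as the lone control, assumed to vary like the other groups and chosen after seeing the data, where 6 members passed in Ab_IR and 9 in L_IR. With all 12 libraries in one fit, 4 passed in L_IR against Ctrl.

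Leaving out immunoglobulin genes and rescaling, 2 members were called in Ab_IR against IR, Hspa9 turned to 0.064 in IR and 0.067 in L_IR against Ctrl, and Ab_IR against L_IR turned to -0.054 for Hspa1a, -0.13 for Hspa1b, -0.12 for Hspa8 and -0.0054 for Hspe1. Quantile normalization gave -0.018 for Hspa1b and -0.071 for Hspa8 in Ab_IR against L_IR, -0.17 for Hsp90ab1 in Ab_IR and -0.22 for Hspd1 in L_IR against Ctrl, and left Hsp90aa1 and Hspd1 short of the threshold in IR against Ctrl. Scaling by the median log2 ratio gave 0.035 for Hspa9 in IR against Ctrl, -0.059 for Hspa9 in L_IR against IR and 0.00055 for Hsph1 in Ab_IR against Ctrl. Adding pseudogene copies, also chosen after seeing the data, gave Hspa8 -0.054 in Ab_IR against L_IR and -0.038 in Ab_IR against Ctrl.

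The replicate numbers did not pair the libraries, since correlations of same-numbered deviations ran from -0.269 to 0.208, with 2 of 18 above 0.1. With the replicate number as a block, 1 member instead of 3 passed in Ab_IR against L_IR, where Hsph1 and Dnajb1 were lost, and Hspa1a passed in L_IR against IR.

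Leaving out 1 library at a time, members passing ranged from 1 to 4 in Ab_IR against L_IR, with 1 without L_IR replicate 2 or 3, and from 2 to 4 in L_IR against Ctrl, with 4 without Ctrl replicate 1. Hspa9 ranged from -0.10 to 0.10 in IR against Ctrl, -0.061 to 0.027 in Ab_IR against IR, -0.0081 to 0.028 in L_IR against IR, -0.072 to 0.016 in Ab_IR against L_IR, -0.11 to 0.095 in Ab_IR against Ctrl and -0.089 to 0.11 in L_IR against Ctrl. Hspa1a ranged from -0.065 to 0.023 in Ab_IR against IR, and in Ab_IR against L_IR Hspa1b from -0.054 to 0.045 and Hspa8 from -0.0098 to 0.068. Against Ctrl, Hsph1 ranged from -0.041 to 0.018, Hspd1 from -0.14 to 0.032 and Hspe1 from -0.0019 to 0.71 in Ab_IR, and Dnajb1 from -0.048 to 0.083, Hspd1 from -0.070 to 0.11 and Hspe1 from -0.14 to 0.57 in L_IR. With the depth unknown, differences of this size cannot be set against counting error.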
